A study of Mus musculus with 35 samples.

Results

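The genes described here are 9 genes used as markers of the choroid plexus, Ttr, Folr1, Kl, Clic6, Kcne2, Slc4a5, Otx2, F5 and Sostdc1, found by their exact symbols among the 49568 genes of the count tables. All 9 passed the filter on low counts, as did 18063 genes in all. The data were RNA fragment counts from polyA RNA of the hypothalamus of 35 male B6/J mice, 1 library per mouse, all at Zeitgeber time 16, which is 16 h after lights-on. Of the control mice, 10 were fed freely and 10 were fasted for 16 h. PER2-S662D mice, whose clock protein PER2 is mutant, were likewise fed (n = 5) or fasted (n = 5), and a further 5 fasted mice were labelled Per2 knockout. The study's title concerns unsaturated fat, phosphorylation of the clock protein and seasonal alignment of rhythms, and the labels name neither an age nor how the alleles were made. Tissue was a block from 0 to -3 mm on the anteroposterior axis, 1.5 mm to either side of the midline and 4 to 7 mm deep on the dorsoventral axis.

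The choroid plexus is a folded sheet of epithelium inside the brain ventricles that secretes cerebrospinal fluid. Its cells carry ions and water from blood to fluid, take vitamins such as folate across, and release large amounts of transthyretin, the product of Ttr, which binds thyroid hormone and retinol-binding protein. The hypothalamus surrounds the third ventricle, and the choroid plexus of that ventricle hangs from its roof, dorsal to the hypothalamus. The labels give hypothalamus as the only tissue and do not mention choroid plexus. Whether choroid plexus tissue entered the dissected blocks was not tested. In whole tissue, fewer cells of a type and less RNA per cell cannot be told apart.

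Because the 9 genes moved together between mice and Otx2 encodes a homeodomain transcription factor of the choroid plexus, 300-base promoters (250 bases before a start and 50 after it) were searched for the Otx2-type motif TAATCC on both strands. RefSeq entries on GRCm38.p6 matched Kl, Kcne2, Slc4a5, Otx2 and F5, with 9 promoters in all. Shown are a start of Kcne2 (chr16:92292139-92292438, plus strand) and of F5 (chr1:164151585-164151884, plus strand), a potassium channel subunit and a secreted factor whose values below follow Ttr closely, and the 1 start of Otx2 that holds the motif (chr14:48665060-48665359, minus strand). Capitals mark the motif, here its reverse form GGATTA.
Kcne2: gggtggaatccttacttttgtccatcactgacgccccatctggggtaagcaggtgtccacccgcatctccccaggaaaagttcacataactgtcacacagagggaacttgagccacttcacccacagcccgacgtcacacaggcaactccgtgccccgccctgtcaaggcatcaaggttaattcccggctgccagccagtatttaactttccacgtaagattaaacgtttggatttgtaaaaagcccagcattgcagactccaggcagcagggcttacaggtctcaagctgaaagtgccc
F5: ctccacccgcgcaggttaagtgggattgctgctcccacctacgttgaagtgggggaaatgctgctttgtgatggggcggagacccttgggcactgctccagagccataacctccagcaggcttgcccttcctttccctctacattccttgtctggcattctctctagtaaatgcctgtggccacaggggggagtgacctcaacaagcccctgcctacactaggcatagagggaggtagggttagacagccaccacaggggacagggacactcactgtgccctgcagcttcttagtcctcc
Otx2: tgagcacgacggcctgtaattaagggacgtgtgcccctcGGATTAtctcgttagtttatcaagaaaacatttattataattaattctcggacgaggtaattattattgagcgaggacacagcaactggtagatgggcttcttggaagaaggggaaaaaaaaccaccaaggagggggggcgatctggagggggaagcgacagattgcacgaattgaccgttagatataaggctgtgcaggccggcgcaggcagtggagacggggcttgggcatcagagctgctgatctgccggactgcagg
The motif stood in 1 of the 9 promoters, 211 bases before that start of Otx2, and in 7.06% of the 32851 mouse promoters of the same length. Neither the F5 nor the Kcne2 window holds these letters, which says nothing of Otx2 binding elsewhere.

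Depth was 17959586 to 37027342 counts per library, and levels are given in CPM, that is counts divided by the TMM-scaled library size. Every one of 12 hypothalamic marker genes was detected in every library, such as Avp at 136 to 327 CPM and Hcrt at 55.1 to 132 CPM. Per2 itself stood no lower in the labelled Per2 knockout libraries (30.2 ± 1.99 CPM, SD, n = 5) than in fasted controls (29.0 ± 2.44, n = 10), so "labelled" is kept for that group. It was lower in S662D mice, at 18.7 ± 1.98 CPM fed and 19.9 ± 2.38 fasted, against 28.2 ± 1.87 in fed controls. Library numbers in the file headers fall into separate ranges for control replicates 1 to 5, control replicates 6 to 10, the labelled knockouts and the S662D mice, and 6 of the 10 S662D numbers carry an additional digit. P-values measure the spread between these mice, since nothing in the labels says how the mice were housed or related.

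On the mouse build mm10, as the count tables give it, Ttr lies on chromosome 18 from 20665250 to 20674324, Folr1 on chromosome 7 from 101858331 to 101870788 and Kl on chromosome 5 from 150952607 to 150993817. Kcne2 (92292389 to 92298129) and Clic6 (92485736 to 92541243) are both on chromosome 16. Slc4a5 lies on chromosome 6 from 83219828 to 83304945, and Otx2 on chromosome 14 from 48657679 to 48667644. F5 lies on chromosome 1 from 164151838 to 164220277, and Sostdc1 on chromosome 12 from 36314169 to 36318452. All counts come from exons. Reads were counted without strand, and exons of Ttr and F5 overlap another gene over 0.902% and 3.53% of their length (Gm16090 and Gm16548), while the other members overlap none. At most 2.89% of the 50-base words of a member (F5) occurred in transcripts of another gene. For Kl it was 0.627%, but these words were spread over 205 other genes, against at most 2 for any other member.

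By the SD of log2 CPM within groups, Ttr varied more between mice than any other gene tested. Its level ran from 1.27 CPM (33 counts) in fasted S662D replicate 2 to 1430 CPM (27608 counts) in fasted control replicate 8, a ratio of 1122. Fed controls had a lowest value of 2.39 CPM, a median of 13.1 and a highest of 888. Fasted controls ran from 1.88 to 1430 CPM around a median of 9.10, and replicates 9 and 5 held 1241 and 171 CPM. Above 100 CPM were 1 of 10 fed controls and 3 of 10 fasted controls, far above low medians. In the labelled knockouts, replicates 1 to 5 had 6.80, 3.40, 21.4, 40.6 and 247 CPM. In S662D mice they had 6.67, 619, 26.4, 23.1 and 603 CPM when fed, and 23.6, 1.27, 12.2, 17.4 and 252 CPM when fasted. All 5 groups overlapped, each held at least 1 mouse above 100 CPM, and 8 of the 35 libraries lay above that level. Replicate 5 was above it in 4 of the 5 groups and replicate 2 in both fed groups, though the labels do not say that a number marks anything shared.

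**Figure D1:**
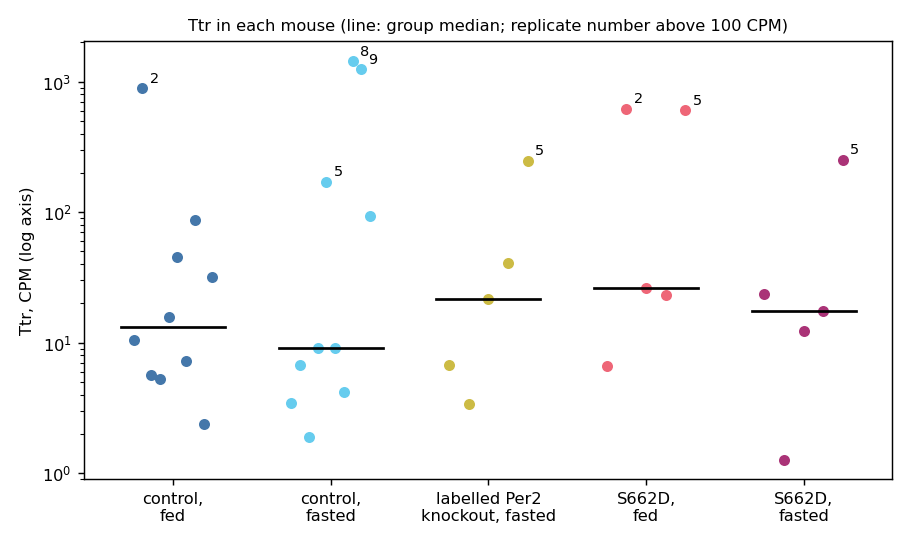
Ttr in CPM (log axis) in each of 35 mice, by group, with lines at the group medians and replicate numbers beside mice above 100 CPM. Medians lie between 9.10 and 26.4 CPM, while 1 to 3 mice in each group reach 171 CPM or more.

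Folr1 encodes the folate receptor that carries folate across the choroid plexus epithelium. It was at 0.415 to 6.99 CPM in fed controls (median 0.793) and at 0.431 to 12.2 in fasted controls (median 0.704). Replicates 1 to 5 had 0.589, 0.284, 0.651, 0.433 and 3.58 CPM in the labelled knockouts, 0.657, 6.96, 0.993, 0.967 and 5.74 in fed S662D mice, and 0.846, 0.541, 0.802, 0.519 and 3.23 in fasted S662D mice. The mice high in Folr1 were those high in Ttr, and no group stood apart. Kl encodes klotho, a membrane protein and co-receptor for a fibroblast growth factor. It ran from 2.56 to 27.6 CPM in fed controls (median 4.83) and from 4.07 to 41.8 in fasted controls (median 5.86). Labelled knockouts had 4.07, 4.87, 4.39, 7.33 and 14.2 CPM. Fed S662D mice had 4.04, 24.6, 5.57, 6.87 and 22.4 CPM, and fasted S662D mice 4.81, 4.67, 6.64, 5.43 and 13.4. Kl differed from Folr1 in its floor in CPM, since no mouse fell below 2.56 CPM. CPM does not allow for gene length, and per kilobase of exon the lowest values were closer, at 0.275 for Kl and 0.124 for Folr1.

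Among the ion transport genes, Kcne2, a potassium channel subunit, and Slc4a5, a sodium bicarbonate cotransporter, were nearly absent in most mice. Kcne2 ran from 0.110 to 7.05 CPM in fed controls (median 0.205) and from 0.0529 to 7.15 in fasted controls (median 0.160). Replicates 1 to 5 had 0.803, 0.236, 0.217, 0.315 and 1.41 CPM in the labelled knockouts, 0.253, 3.80, 0.441, 0.251 and 3.86 in fed S662D mice, and 0.406, 0.0772, 0.178, 0.330 and 1.90 in fasted S662D mice. The lowest Kcne2 value was a single count and the highest was 138 counts. Slc4a5 ran from 0.0519 to 4.98 CPM in fed controls (median 0.385) and from 0.106 to 8.96 in fasted controls (median 0.498). Labelled knockouts had 0.214, 0.236, 0.380, 0.709 and 2.33 CPM, and S662D mice had 0.303, 6.52, 0.496, 0.430 and 4.87 fed and 0.237, 0.270, 0.446, 0.283 and 2.52 fasted. Both genes were highest in mice above 100 CPM of Ttr, in every group.

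Clic6, of the chloride intracellular channel family, behaved otherwise and was well above 0 in every mouse. Fed controls had 10.8 to 29.7 CPM (median 15.0) and fasted controls 11.0 to 44.4 (median 14.5). Labelled knockouts had 16.0, 11.2, 14.8, 12.6 and 17.7 CPM. S662D mice had 17.2, 28.6, 20.2, 19.7 and 30.2 CPM fed and 17.4, 11.7, 9.94, 11.5 and 20.6 fasted. The highest Clic6 value in the labelled knockouts was thus near the other 4, unlike that of Ttr.

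Otx2, the transcription factor required for choroid plexus development, had the narrowest range. It was at 4.40 to 8.90 CPM in fed controls (median 5.56) and at 3.86 to 11.6 in fasted controls (median 5.73). Replicates 1 to 5 had 6.00, 4.44, 3.85, 6.30 and 7.70 CPM in the labelled knockouts, 5.06, 9.57, 5.13, 4.69 and 10.4 in fed S662D mice, and 5.31, 5.29, 6.73, 6.51 and 6.16 in fasted S662D mice. In fasted S662D mice the highest Otx2 value was that of replicate 3, which had 12.2 CPM of Ttr, and not that of replicate 5.

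The secreted proteins were F5, coagulation factor V, and Sostdc1, an antagonist of BMP and Wnt signalling. F5 ran from 0.629 to 9.38 CPM in fed controls (median 0.884) and from 0.781 to 18.8 in fasted controls (median 1.29). Labelled knockouts had 1.39, 0.662, 0.543, 1.58 and 3.42 CPM, and S662D mice had 0.809, 10.4, 1.65, 1.43 and 7.97 fed and 0.643, 0.618, 0.847, 1.09 and 4.77 fasted. Sostdc1 ran from 1.48 to 8.90 CPM in fed controls (median 1.56) and from 0.945 to 9.38 in fasted controls (median 1.96). Labelled knockouts had 2.46, 0.757, 1.63, 1.62 and 2.87 CPM, and S662D mice had 2.02, 6.96, 1.77, 1.65 and 6.45 fed and 2.27, 1.78, 1.83, 2.64 and 3.29 fasted. Both followed the same mice, F5 over a wider range than Sostdc1.

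**Figure D2:**
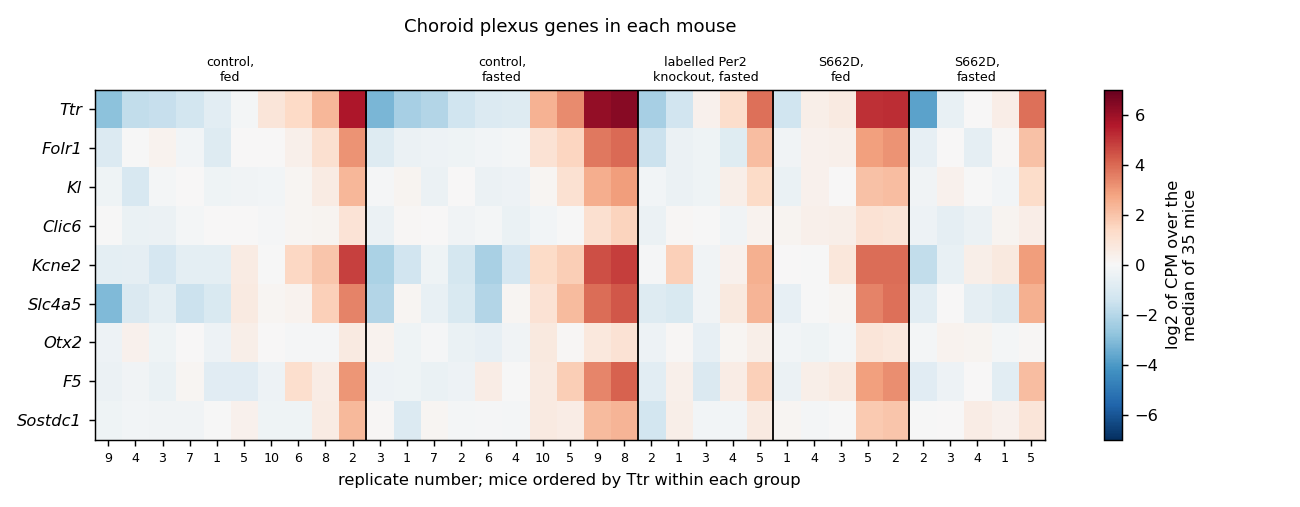
Level of each of the 9 genes (rows) in each of 35 mice (columns, ordered by Ttr within each group), as the log2 ratio of CPM to the median over the 35 mice. The rightmost columns of each group are red for most genes, with pale Clic6 and Otx2 rows.

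Per kilobase of exon, the median level over 35 mice was highest for Ttr (14.2 CPM per kb), then Clic6 (3.87), Otx2 (1.69), Sostdc1 (1.04), Kl (0.589), Folr1 (0.344), F5 (0.146), Kcne2 (0.143) and Slc4a5 (0.0768). The order of neighbours such as F5 and Kcne2 lay well within their spread between mice. In the mouse with the most of each gene, Ttr reached 1173 CPM per kb and the others 1.54 (Slc4a5) to 11.4 (Clic6).

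As a measure of spread, the residual SD of log2 CPM within groups was 2.91 for Ttr, rank 1 of 18063 genes, against a median of 0.15 over all genes. Kcne2 (1.70) and Slc4a5 (1.65) had ranks 3 and 4, Folr1 (1.36) rank 14, F5 (1.34) rank 16, Kl (0.99) rank 57 and Sostdc1 (0.85) rank 106. Clic6 (0.48) and Otx2 (0.43) had ranks 1872 and 2537. The group labels took 4.99% of the variance of log2 Ttr and between 3.43% (Otx2) and 19.5% (Clic6) for the other members. Most of the variation in these genes thus lay between mice of the same group.

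The members varied jointly. Over the 35 mice, after removal of group means, Pearson's r between members was 0.597 (Clic6 and Otx2) to 0.950 (Folr1 and Slc4a5) over 36 pairs, with a median of 0.885, and Spearman's rho was 0.408 to 0.885. In a two-sided permutation test within groups (100000 permutations), all 36 pairs had an adjusted p below 0.05, the highest being 0.00065 for Clic6 and Otx2. The members were chosen with earlier results of these data known, which these p-values and those of the slopes below do not allow for. Ttr correlated with Slc4a5 at r = 0.939 (rho = 0.861), with Folr1 at 0.936 (rho = 0.885) and with Kcne2 at 0.932 (rho = 0.883), each with a permutation p of 1e-05 (adjusted 1.16e-05) for r, the smallest these permutations can give. Its r with Otx2 was 0.720 (rho = 0.638, permutation p for r = 2e-05, adjusted 2.06e-05). Without the 2 libraries farthest from the median of the first gene of a pair, r was 0.375 to 0.927.

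Within library sets, r was also computed for each set of 6 or more mice. In controls 1 to 5 (10 libraries) r was 0.387 to 0.974, in controls 6 to 10 (10 libraries) 0.687 to 0.981, and in the 6 S662D libraries with the additional digit 0.633 to 0.998. Of those 6 libraries only fed S662D replicate 2 was high in Ttr (619 CPM, the others at most 26.4), so the last range rests on 1 mouse. The control ranges rest on few high mice too. Above 100 CPM of Ttr were only fed replicate 2 (888) and fasted replicate 5 (171) in controls 1 to 5. In controls 6 to 10 they were only fasted replicates 8 (1430) and 9 (1241). Without the 8 libraries above 100 CPM of Ttr, r ran from -0.180 (Clic6 and Otx2) to 0.758 (Ttr and Folr1) with a median of 0.427, and 13 of 36 pairs passed. In those 27 mice Ttr still correlated with Slc4a5 at 0.733 and with Kcne2 at 0.725, but with Clic6 at 0.363 and with Otx2 at 0.308. Other pairs fell as far, such as Kl and Sostdc1 (0.028), while Clic6 and Kcne2 kept 0.531. Leaving out libraries by their Ttr narrows the range of Ttr, which by itself tends to lower r. Whether the fall in r came from that was not tested.

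**Figure D3:**
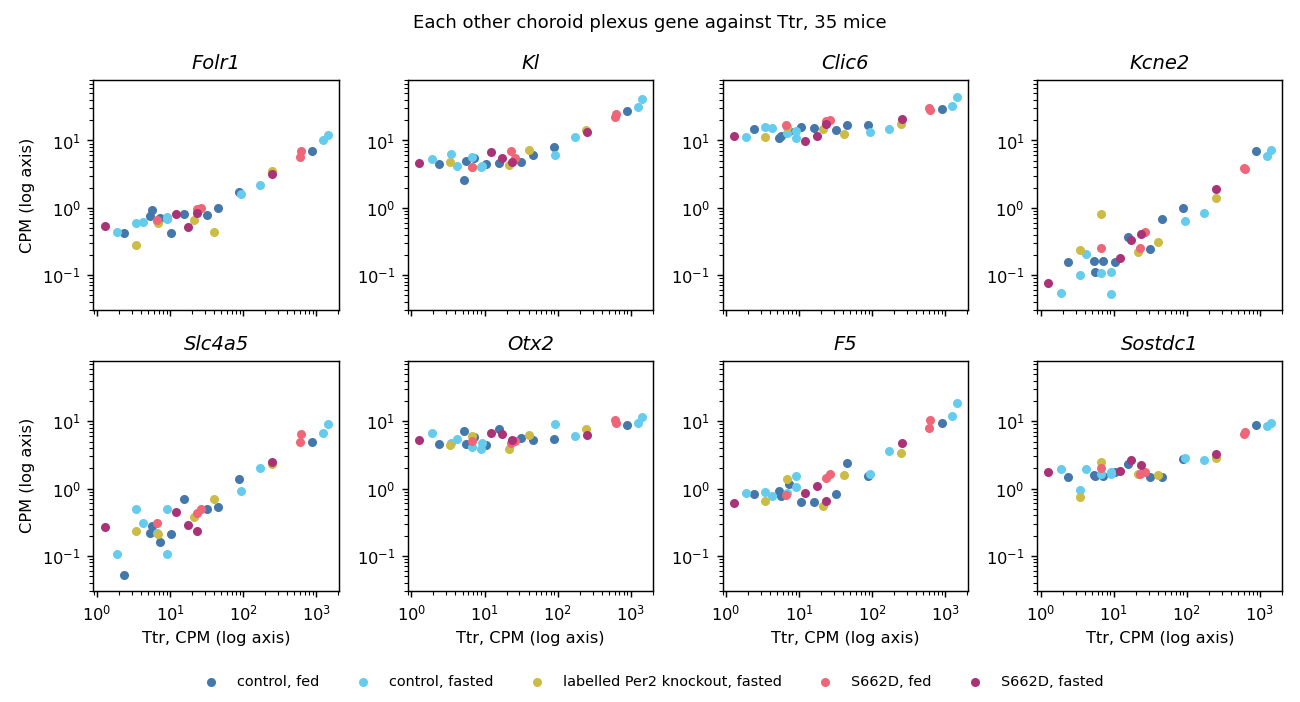
CPM of each other gene against CPM of Ttr in 35 mice (both axes log), coloured by group. Folr1, Kcne2 and Slc4a5 rise over much of the Ttr range, while Clic6 and Otx2 stay near a floor except in the mice highest in Ttr. Clic6 passed 20.6 CPM only in mice with 603 CPM of Ttr or more. In those mice Otx2 was 8.90 to 11.6 CPM, against at most 9.09 in the others. F5, Kl and Sostdc1 lie in between. Without the 8 libraries above 100 CPM, their r with Ttr was 0.566, 0.504 and 0.484.

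Straight lines of CPM against CPM of Ttr over the 35 mice described these floors. The intercept, which is the fitted level at no Ttr, was 14.0 ± 0.52 CPM (SE) for Clic6, 5.49 ± 0.22 for Otx2, 5.01 ± 0.30 for Kl and 1.75 ± 0.12 for Sostdc1. For F5 it was 0.93 ± 0.17 CPM, for Folr1 0.66 ± 0.07, for Slc4a5 0.38 ± 0.11 and for Kcne2 0.22 ± 0.09. Per 1000 CPM of Ttr, the fitted rise was 25.4 CPM for Kl, 19.5 for Clic6, 11.1 for F5, 8.09 for Folr1, 6.20 for Sostdc1, 6.08 for Slc4a5, 5.33 for Kcne2 and 4.41 for Otx2. Clic6 and Otx2 thus had much RNA in mice with next to no Ttr, whereas Kcne2 and Slc4a5 had little.

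Raw counts were also set against those of Ttr. The 8 libraries above 100 CPM of Ttr held 4.68 to 7.94 counts of Kcne2, 5.43 to 12.0 of Slc4a5, 7.88 to 14.5 of Folr1 and 9.50 to 21.2 of F5 per 1000 counts of Ttr. They held 25.7 to 66.4 counts of Kl, 26.5 to 87.3 of Clic6, 7.70 to 35.4 of Otx2 and 6.56 to 15.4 of Sostdc1 per 1000 counts of Ttr. In the library with the least Ttr, fasted S662D replicate 2, these ratios were larger for every gene, as a small denominator makes them: 60.6 for Kcne2, 212 for Slc4a5, 424 for Folr1, 485 for F5, 1394 for Sostdc1, 3667 for Kl, 4152 for Otx2 and 9152 for Clic6.

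A slope on Ttr was then tested for every gene, with edgeR's quasi-likelihood test, group means in the model and log2 Ttr centred within groups. A slope is the log2 change per doubling of Ttr within a group. All 8 other members were called higher with Ttr (adjusted p below 0.05 over 18062 genes), against 0.570% of all genes called higher. Their slopes were 0.69 (SE 0.03) for Kcne2, 0.62 (SE 0.03, adjusted p = 6.97e-21) for Slc4a5, 0.50 for Folr1, 0.48 for F5, 0.33 for Kl, 0.27 for Sostdc1, 0.14 for Clic6 and 0.11 (SE 0.02, adjusted p = 8.34e-05) for Otx2. The members' median slope was 0.40 and that of all genes 0.00 after rounding. A slope was called in 107 genes in all (0.592%), 103 of them higher and 4 lower (Dlk1, Rhof, Ntsr2 and Osbpl10, named after their values were seen). Without the 8 libraries above 100 CPM of Ttr, no gene was called by edgeR (495 genes had an unadjusted p below 0.05; DESeq2 was not run there), and 6 of the 8 members had an unadjusted p below 0.05, with slopes such as 0.43 for Slc4a5 and 0.47 for Kcne2. That choice was made after seeing the data.

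Other genes of choroid plexus epithelium varied with Ttr as well. Of 20 such genes, a list also chosen with earlier results of these data known, 14 were called higher and none lower, with a median slope of 0.17. The 4 most abundant were Enpp2, the enzyme autotaxin, with a slope of 0.19 (adjusted p = 1.77e-09), Ace, the angiotensin-converting enzyme, with 0.06 (adjusted p = 4.35e-06), Trpm3, a cation channel, with 0.03 (adjusted p = 0.356), and Slc4a2, an anion exchanger, with 0.03 (adjusted p = 0.0559). Enpp2 ranged from 166 to 798 CPM with a median of 213, and its highest value was in fasted control replicate 8, which also held the most Ttr. The summed level of the 20 genes was 418 to 1201 CPM. General ion and vitamin transporters, such as the sodium pump subunit Atp1b1, showed none of 10 called.

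Markers of other cells in or beside the block were set beside this. Of 9 ependymal genes tested, 3 were called higher with Ttr (Foxj1 with a slope of 0.05, Rsph1 with 0.07 and Dynlrb2 with 0.09), and the summed level was 49.9 to 93.1 CPM, highest in fasted control replicate 8. Of 12 leptomeningeal genes, 2 were called higher (Igf2 at 0.16 and Lum at 0.13), with sums of 235 to 1193 CPM, highest in labelled knockout replicate 5. Most of that sum was 1 gene, Ptgds, at 184 to 1058 CPM and also highest in that mouse. Its slope on Ttr was 0.02 and was not called. The range of the sum thus does not describe the list as a whole. Tanycyte genes had summed levels of 178 to 243 CPM. Of 7 cortical and hippocampal genes, 1 was called higher (Neurod2, slope 0.17). None of 10 thalamic and habenular, 8 striatal, 5 pituitary and 12 hypothalamic genes was called in either direction. The 12 hypothalamic slopes were nonetheless all negative, from -0.035 to -0.002, with a median of -0.02 and a lowest adjusted p of 0.306. All 9 ependymal slopes were positive, from 0.03 to 0.09, with a median of 0.05. The cause of these signs was not tested. The habenular genes Pou4f1 (slope 0.15, adjusted p = 0.603), Gpr151 (0.12, adjusted p = 0.454) and Nwd2 (0.11, adjusted p = 0.298) had slopes as large as some that were called. They were the steepest of the 10 thalamic and habenular genes and were named after their values were seen. The other genes of that list had slopes of -0.02 to 0.04, and the median of the 10 was 0.02. Gh and Prl, which encode pituitary hormones, had a median of 0. The part of ependymal and leptomeningeal tissue in the variation of the 9 genes was not tested.

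**Figure D4:**
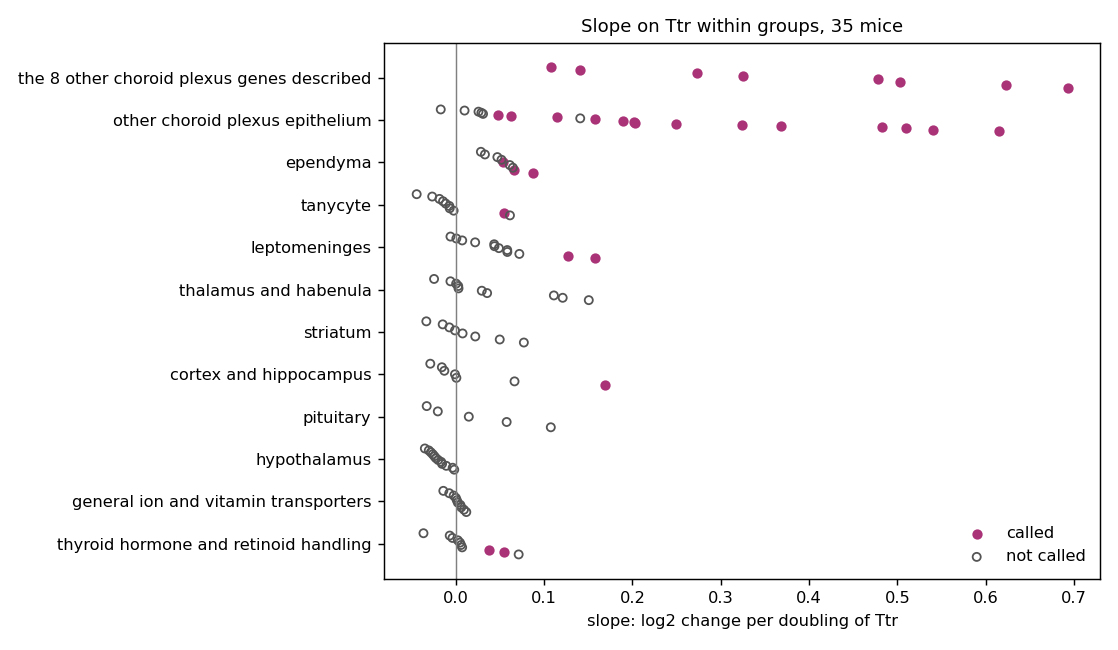
Slope of each tested gene on Ttr (log2 change per doubling of Ttr within a group, 35 mice) for the 8 other choroid plexus genes described and 11 other gene lists. Filled points were called at an adjusted p below 0.05, and the 14 called genes of other choroid plexus epithelium reach 0.62, against 0.69 for Kcne2.

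The 10 non-member genes whose variation was most like the mean of the 9 genes (Pearson's r over 35 libraries, group means removed, genes averaging 1 CPM or more) were Mfrp (0.965), Enpp2 (0.958), Cldn2 (0.951), 1500015O10Rik (0.930), Tmem72 (0.929), Car12 (0.923), Aqp1 (0.914), Abca4 (0.899), Trpv4 (0.865) and Lbp (0.864). Among these, Cldn2 encodes a tight junction protein, Aqp1 a water channel and Car12 a carbonic anhydrase. Of 15469 non-member genes, 20 had an r above 0.8, and the median r was -0.01. All libraries share the TMM scaling, and the list was ranked on the same mice.

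None of the 9 genes was called in any comparison between groups, by edgeR or by DESeq2 (adjusted p below 0.05). At an unadjusted p below 0.05 in edgeR, 1 passed for fasting in S662D mice, 4 for the difference of fasting responses and 0 elsewhere. For fasting in control mice, 3.88% of all genes tested and 0 of 9 members were called. The Ttr difference, fasted minus fed, was 1.44 on the log2 scale (SE 1.21, adjusted p = 0.718), and the members' differences were 0.15 (Otx2) to 1.44. Within controls 1 to 5 the Ttr difference was -2.27 and within controls 6 to 10 it was 3.98, and 0 members were called in either set. Without the 8 libraries above 100 CPM of Ttr it was -0.39. Its sign thus turned with the mice included.

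For fasting in S662D mice, 2.64% of all genes and 0 of 9 members were called. All 9 differences were negative, from -0.23 (Otx2) to -2.04 (Ttr, SE 1.74, adjusted p = 0.649), and 1 member, Clic6, had an unadjusted p below 0.05 (-0.69, SE 0.32, adjusted p = 0.305). Ttr differed by -1.14 in the libraries without the additional digit and by -4.49 in those with it. The difference between the fasting responses of S662D and control mice was called in no gene (0%), with 1150 genes at an unadjusted p below 0.05. Its 9 member values were all negative, from -0.38 (Otx2) to -3.47 (Ttr, SE 2.13, adjusted p = 0.808), and 4 of them had an unadjusted p below 0.05 (Clic6, F5, Slc4a5 and Folr1). For Ttr this value was 0.23 when only controls 1 to 5 entered and -6.02 when only controls 6 to 10 did.

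S662D against control called 4.68% of all genes in fed mice and 5.57% in fasted mice, and 0 of 9 members in each. Ttr differed by 1.22 in fed mice (SE 1.41, adjusted p = 0.675) and by -2.25 in fasted mice (SE 1.63, adjusted p = 0.467). In fed mice all 9 member values were positive and in fasted mice all 9 were negative. The labelled knockout against fasted control called 0.0277% of all genes and 0 of 9 members, with Ttr at -2.23 (SE 1.64, adjusted p = 0.878). Against fasted S662D it called 7.32% of all genes and 0 of 9 members, with Ttr at 0.03 (SE 1.73, adjusted p = 0.996). These comparisons share groups, so their signs are not independent. With standard errors above 1 for Ttr, differences of several fold between groups were not detectable with these numbers of mice.

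**Figure D5:**
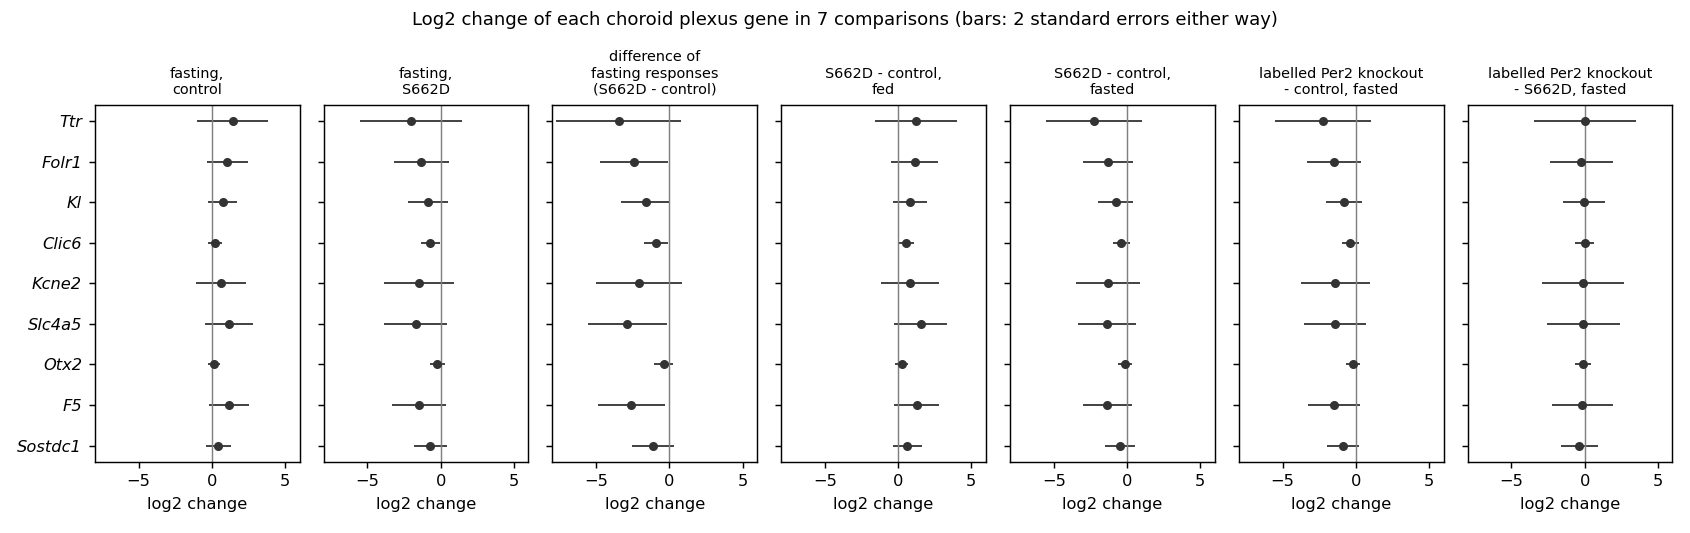
Log2 change of each of the 9 genes in 7 comparisons, with bars of 2 standard errors to either side. Bars are widest for Ttr and narrowest for Otx2 and Clic6, and no gene was called in any panel.

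No member was called between the library sets. Control replicates 6 to 10 against 1 to 5 called no gene (0%, with 1580 genes at an unadjusted p below 0.05), and Ttr differed by 0.73 (SE 1.14, adjusted p = 0.901). That value was -2.39 in fed mice and 3.85 in fasted mice. S662D libraries with the additional digit against those without called 13.5% of all genes and 0 of 9 members, with Ttr at -2.11 (SE 1.78, adjusted p = 0.490).

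Log2 Ttr was also added to the model as a covariate for the other 8 members. Centred within each group, the covariate takes the shared variation between mice out of the residual but leaves the group difference of Ttr, which has a standard error above 1 and was not called, in the value tested. Calls made that way, for 5 of 8 members on fasting in S662D mice (2.72% of all genes), 6 of 8 for S662D against control in fed mice (4.98%) and 3 of 8 for the difference of fasting responses (0.0166%), therefore leave out much of the spread between mice and are no test of the groups. With Ttr not centred, so that its group differences were taken out too, 0 of 8 were called in any of the 7 comparisons. Over all genes, calls with the centred covariate and without it were 721 and 701 for fasting in control mice and 492 and 476 for fasting in S662D mice, of which 695 and 469 were shared.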

How the data were processed

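The values are raw counts, deposited by the authors as 35 tables with 1 library each. The counts came, per the file headers, from featureCounts 2.0.1 run on paired fragments with the GENCODE vM12 annotation (mm10), grouped under gene names, including all alignments of multi-mapping reads and without a strand option. Per the submitters' processing notes, STAR 2.7.10b and Subread were also used. Counting without strand adds reads of overlapping genes to a gene's count.

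Groups came from the labels alone and no library was left out. Genes were filtered with filterByExpr (minimum count 10), scaled with TMM and fitted in 1 model of 5 group means by the quasi-likelihood method of edgeR 4.0.16 (R 4.3.3; robust glmQLFit and glmQLFTest), with Benjamini-Hochberg adjustment over all genes tested and calls at an adjusted p below 0.05. The common biological coefficient of variation was 0.0900. Log2 CPM used a prior count of 2, and correlations were computed with Python and numpy. The fits and the correlation code were tested on simulated data. No 2 libraries of a group agreed within sampling noise (lowest chi-square per degree of freedom 2.53).

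The text names the 9 members, Per2, up to 4 genes per other list (highest mean CPM), the 10 genes most like the members, and called genes where a count was 5 or fewer. Gh, Prl, Pou4f1, Gpr151, Nwd2 and the genes of the closing observations other than Mfrp and 1500015O10Rik were chosen after their values were seen. The members and lists were chosen with earlier results of these data known. Lists covered other choroid plexus epithelium, ependyma, tanycytes, leptomeninges, thalamus and habenula, striatum, cortex and hippocampus, pituitary, hypothalamus, ion and vitamin transporters, and thyroid hormone and retinoid handling. The slope counts of the tanycyte list and of the thyroid hormone and retinoid list are not reported here. Alternatives were other scalings, no filter, DESeq2 1.42.0, fewer libraries, library sets, a replicate block and Ttr as a covariate. RefSeq promoters were not used for Ttr, Folr1, Clic6 and Sostdc1.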

Additional observations from a re-analysis of the deposited data

Results flagged for a closer look

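In 17 of 45 combinations of gene and group, the highest mouse stood farther from the rest than Dixon's 95% limit allows. The limit is passed in about 1 in 20 groups only where values are normal. CPM was right-skewed here, as for Ttr in fed controls (mean 110, median 13.1), so high values pass more often. The members also varied jointly in the same mice, so these 17 are not independent. All were high values from 3 mice. In fed control replicate 2, these were Ttr (888 CPM, next mouse 87.7), Folr1 (6.99), Kl (27.6), Clic6 (29.7), Kcne2 (7.05), Slc4a5 (4.98), F5 (9.38) and Sostdc1 (8.90), so every member but Otx2. In fasted S662D replicate 5, they were Ttr (252 CPM, next mouse 23.6), Folr1 (3.23), Kl (13.4), Kcne2 (1.90), Slc4a5 (2.52) and F5 (4.77). In labelled knockout replicate 5, they were Ttr (247 CPM, next mouse 40.6), Folr1 (3.58) and Slc4a5 (2.33). The 2 groups with more than 1 very high mouse, fasted controls and fed S662D mice, had none, since high mice there lie close to each other.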

How the results depend on the processing

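Counts of called members stayed at 0 in every comparison under RLE or library-size scaling, no filter, DESeq2, fits of the compared groups alone, library sets and the removal of any 1 library. The exceptions were calls with log2 Ttr centred within groups as a covariate, with 5 members for fasting in S662D mice, 3 for the difference of fasting responses and 6 for S662D in fed mice. Genes called higher with Ttr fell from 103 to 45 without the 2 libraries farthest from the Ttr median, to 44 in control libraries only and to 0 without the 8 libraries above 100 CPM of Ttr, where 0 members and 0 other choroid plexus genes were called and 13 pairs of members passed. Removal of single libraries gave 69 to 124 genes, with 8 members and 36 pairs in each case. In the 27 mice the cause of the lost calls was not tested.

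Same-numbered mice had r of -0.19 to 0.06 between fed and fasted controls, -0.11 to 0.16 between fed and fasted S662D mice, -0.05 to 0.24 between the fed groups (3 of 5 over 0.1), -0.02 to 0.10 between fasted S662D mice and controls, and at most 0.05 for the labelled knockouts. In none was every pair over 0.1, so the numbers were not taken to pair mice, although replicate 5 was above 100 CPM of Ttr in 4 of 5 groups. With a replicate block, 0 members were called in all 7 comparisons, and the Ttr difference turned to 0.45 for S662D in fasted mice and to 0.60 for the labelled knockout against control. With controls 1 to 5 alone it turned to -2.27 for fasting in controls, 0.23 for the difference of responses, 0.70 for S662D in fasted mice and 0.72 for the labelled knockout. It was -1.12 for the labelled knockout against S662D without the digit libraries, and -2.39 between control sets in fed mice. Without the 8 libraries it turned to -0.39 for fasting in controls, -0.34 for S662D in fed mice, 0.019 for the labelled knockout against control and 0.33 for the digit. Leaving out single libraries moved Ttr from -1.76 (without labelled knockout replicate 5) to 2.22 for the labelled knockout against S662D, and from -3.71 to 0.64 (without fed S662D replicate 5) for the digit. For the other comparisons the ranges were 0.64 (without fasted control replicate 8) to 3.64 (without fed control replicate 2) for fasting in controls, -4.23 (without fasted S662D replicate 5) to -1.40 (without fed S662D replicate 2) for fasting in S662D mice, -5.68 to -2.69 for the difference of responses, 0.58 to 3.43 for S662D in fed mice, -4.44 to -1.46 for S662D in fasted mice, -4.01 to -1.44 for the labelled knockout against control and 0.37 to 2.88 for the control sets. The lowest and highest of these 5 came without fed control replicate 2, fasted control replicate 8, fed S662D replicate 2, fasted S662D replicate 5 or labelled knockout replicate 5. The cause of these turns was not tested. Kcne2 and Slc4a5 had as few as 1 count in a library, which limits their levels in mice low in Ttr.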

Other observations

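Among called genes outside every list, those with the steepest rise with Ttr besides Mfrp (slope 0.60) were Wfdc2 (0.47), Oca2 (0.45), Wdr86 (0.42), Prr32 (0.41) and 1500015O10Rik (0.38), of which Wfdc2, Oca2, Wdr86 and Prr32, like the genes below, were named after their values were seen. Slc2a12, a glucose transporter, had a slope of 0.12 and Col8a2, a collagen of basement membranes, one of 0.14. Kcnj13, a potassium channel of the choroid plexus epithelium, had a slope of 0.62 and a lowest value of 0 CPM, with a highest value of 3.79 in fasted control replicate 9. Slc13a4, a sulfate transporter, was highest in fed control replicate 2 (11.1 CPM, against a median of 2.38).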
